A study of Homo sapiens with 6 samples.

Results

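The 6 genes described here are the homeodomain-interacting protein kinases HIPK1, HIPK2 and HIPK3, the adaptor DAZAP2, and the SIAH ubiquitin ligases SIAH1 and SIAH2, out of 59074 genes listed. They were chosen on the measured change after HOTAIRM1 knock-down, because HIPK2 was among the genes with the largest rise and DAZAP2 among those with the largest fall, and the other 4 genes were added as relatives or partners of these. Their knock-down changes are therefore given as a description, without a test, while their levels between cell lines, which the choice did not use, were tested. All 6 genes passed the filter of a mean of at least 1 CPM (reads of a gene per unit of library size), as did 14294 genes in all.

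HIPK2 is a nuclear serine/threonine kinase known for phosphorylating transcription factors and co-repressors after DNA damage. In unstressed cells it is held low by ubiquitin ligases, SIAH1 and SIAH2 among them, which mark it for the proteasome, and DAZAP2 is a small proline-rich protein known to bind HIPK2 and to help its turnover. HIPK1 and HIPK3 share the kinase fold of HIPK2, and SIAH2 is also known for controlling prolyl hydroxylases of the hypoxia response. These steps act largely on protein, which was not measured here.

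RNA was sequenced from LN-229, T98G and U251, established lines of glioblastoma, each transfected with siControl, a pool of non-target small interfering RNAs, or with siHOTAIRM1, a pool against the long non-coding RNA HOTAIRM1. Cells of both groups were harvested at 72 h. There was 1 library per cell line and condition, so 3 siControl and 3 siHOTAIRM1 libraries, and the sample titles name the first line LNT229. Replication of the knock-down was across the 3 lines, no change within a single line has a replicate, and siHOTAIRM1 was 1 pool, so an effect on HOTAIRM1 cannot be told apart from another effect of the same pool. Since the libraries are bulk RNA, fewer cells with a transcript and less of it per cell cannot be told apart either.

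HOTAIRM1 itself was at 1.99 CPM in siControl and 0.952 CPM in siHOTAIRM1 of LN-229. In T98G it was at 3.49 and 2.14 CPM, and in U251 at 1.27 and 0.622 CPM. It was lower after knock-down in all 3 lines, with ratios of 0.48, 0.62 and 0.49 and counting intervals (95%) of 0.37 to 0.61, 0.50 to 0.75 and 0.35 to 0.69, which cover counting error only. Depth was 52.3 to 104 M reads per library, and 3 reads, the smallest level taken as detectable, were worth 0.0289 to 0.0574 CPM. VIM, the intermediate filament vimentin that marks mesenchymal and glioma cells, was at 254 to 1794 CPM in every library, and CD44, a surface marker of such cells, at 304 to 819 CPM. NES, the neural stem cell filament nestin, was at 329 to 507 CPM in LN-229 and U251 but at 0.956 and 0.866 CPM in T98G, and the highest of 4 markers of blood, vessel, epithelial and liver cells (PTPRC, PECAM1, EPCAM and ALB) was at 0.523 CPM. MGMT, a DNA repair gene, was at 7.44 and 5.86 CPM in T98G and at most at 0.0114 CPM in the other lines, and CDKN2A, a cell cycle inhibitor gene, was at most at 0.179 CPM. Across all genes with at least 1 CPM, 286 passed the knock-down threshold in limma (adjusted p under 0.05), 59 higher and 227 lower, or 20.6% and 79.4% of the calls. With each library centred on its median the calls were 15 higher and 26 lower (36.6% and 63.4%), and with each library rescaled to the sum of its listed genes, which moved the median of all genes by 0.12 on the log2 scale, they were 10 higher and 15 lower (40% and 60%). On the log2(CPM + 1) scale the median gene was at 0.01 (LN-229), −0.19 (T98G) and −0.03 (U251), so changes are also given relative to it.

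In the annotation of hg38, HIPK1 (ENSG00000163349) lies on chromosome 1 from 113929324 to 113977869 on the plus strand, HIPK2 (ENSG00000064393) on chromosome 7 from 139561570 to 139777998 on the minus strand, and HIPK3 (ENSG00000110422) on chromosome 11 from 33256672 to 33357023 on the plus strand. DAZAP2 (ENSG00000183283) lies on chromosome 12 from 51238724 to 51271362 on the plus strand, SIAH1 (ENSG00000196470) on chromosome 16 from 48356364 to 48448402 on the minus strand, and SIAH2 (ENSG00000181788) on chromosome 3 from 150741125 to 150763477 on the minus strand. HIPK2 and HOTAIRM1 share a chromosome but not a neighbourhood, since HOTAIRM1 (ENSG00000233429) lies from 27095647 to 27100265 of chromosome 7. The transcripts differ in length, from 2064 bases for the principal transcript of DAZAP2 to 15329 bases for that of HIPK2, so levels of different genes are compared only per kilobase.

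Because small interfering RNAs act through base pairing with their target, the longest stretch that each principal transcript shares, on the same strand, with any HOTAIRM1 transcript was read from hg38 and is printed 5′ to 3′ for each gene.
HIPK1: gagctgcgcagcc
HIPK2: aaaaaaaaaaaat
HIPK3: cacactgaaaatg
DAZAP2: ggtttaagaat
SIAH1: ttttggctttc
SIAH2: ccgccgccgcagc
The stretch of DAZAP2 is 11 bases long and lies in the 3′ untranslated part of exon 4 of 4, at chr12:51243519-51243529 on the plus strand. That of HIPK2 is 13 bases long and is an adenine run in the 3′ untranslated part of exon 15 of 15, at chr7:139567394-139567406 on the minus strand. The HIPK1 stretch lies in coding sequence at chr1:113963470-113963482 on the plus strand, the HIPK3 stretch in the 3′ untranslated part at chr11:33355750-33355762 on the plus strand, and those of SIAH1 and SIAH2 in coding sequence at chr16:48361867-48361877 and chr3:150762783-150762795 on the minus strand. None of the 6 genes stood out by the length of its stretch, since 86.4% of 11161 coding transcripts share at least 11 bases with HOTAIRM1 and 33.9% share at least 13. These shares do not adjust for transcript length, and shorter matches were not looked at. The sequences of the siHOTAIRM1 pool are not given in the sources used here, so a match of a pool member to any of the 6 genes was not tested.

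HIPK2, the kinase at the centre of the group, was at 78.9 CPM in LN-229, 214 CPM in T98G and 61 CPM in U251 with siControl. With siHOTAIRM1 it was at 170, 365 and 148 CPM. It was higher in all 3 lines, but the groups overlapped, since T98G with siControl lay above LN-229 and U251 with siHOTAIRM1. The ratio was 2.15 in LN-229 (counting interval 2.09 to 2.21), 1.71 in T98G (1.67 to 1.74) and 2.42 in U251 (2.33 to 2.51), from 3188 to 26579 reads per library. On the log2(CPM + 1) scale the changes were 1.10, 0.77 and 1.26, with a mean of 1.04 ± 0.25 (SD, n = 3 cell lines), or 2.06-fold. Relative to the median gene of each line they were 1.08, 0.96 and 1.29. Ordered by change, HIPK2 stood 10th from the top for LN-229, 23rd for T98G and 28th for U251, and 6th by the mean. The gene just above it by the mean, COL3A1, changed by 0.06, 3.06 and 0.10 in LN-229, T98G and U251, and the gene just below it, CH507-513H4.3, by −2.53, 6.08 and −0.57. Both of these neighbours owed their place to T98G alone, whereas HIPK2 rose in every line. HIPK2 was chosen for its rise in these same libraries, so nothing is read from its place or from this contrast.

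HIPK1, a nuclear kinase close in sequence to HIPK2, was at 64.8, 87.2 and 59 CPM in LN-229, T98G and U251 with siControl and at 56.5, 65 and 64.6 CPM with siHOTAIRM1. It was lower in LN-229 (ratio 0.87, counting interval 0.84 to 0.90) and T98G (0.75, 0.72 to 0.77) and higher in U251 (1.10, 1.05 to 1.14). The mean change was −0.16 ± 0.28 (SD, n = 3 cell lines) on the log2(CPM + 1) scale, so the spread between lines exceeded the mean. With each library rescaled to its listed genes the mean was −0.01.

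HIPK3, the third kinase of the family, was at 46.4, 35 and 55 CPM with siControl and at 65.7, 37.7 and 70.8 CPM with siHOTAIRM1 in LN-229, T98G and U251. It had the same direction as HIPK2 in all 3 lines at a smaller size. The ratio was 1.42 in LN-229 (counting interval 1.36 to 1.47), 1.08 in T98G (1.02 to 1.14) and 1.29 in U251 (1.23 to 1.34). The mean change was 0.32 ± 0.20 (SD, n = 3 cell lines), and 15% of all genes had a change at least as large in either direction. For HIPK2 this share was 0.0909%, but HIPK2 was chosen for its large rise, so nothing is read from the contrast.

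DAZAP2, the adaptor that binds HIPK2, was at 50.4 CPM in LN-229, 45.4 CPM in T98G and 58.8 CPM in U251 with siControl. With siHOTAIRM1 it was at 24.3, 19.1 and 19.4 CPM. The groups did not overlap, and the lowest siControl library was that of T98G at 45.4 CPM while the highest siHOTAIRM1 library was that of LN-229 at 24.3 CPM. DAZAP2 was chosen for its fall in these same libraries, so nothing is read from that separation. The ratio was 0.48 in LN-229 (counting interval 0.46 to 0.51), 0.42 in T98G (0.40 to 0.45) and 0.33 in U251 (0.31 to 0.35), from 1390 to 4453 reads per library. The changes on the log2(CPM + 1) scale were −1.03, −1.20 and −1.56, with a mean of −1.26 ± 0.27 (SD, n = 3 cell lines), or 2.4-fold lower, and −1.04, −1.01 and −1.53 relative to the median gene. DAZAP2 stood 13th from the bottom in LN-229 and 17th in both T98G and U251, and 2nd from the bottom by the mean. Its neighbours by the mean were NT5E at −1.23, with changes of −0.61, −1.61 and −1.47 in LN-229, T98G and U251, and CXCL8 at −1.30, with changes of −0.04, −1.78 and −2.08.

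SIAH1, a RING-type ubiquitin ligase for HIPK2, was at 8.01, 10.9 and 11.5 CPM in LN-229, T98G and U251 with siControl and at 7.89, 11.7 and 15.4 CPM with siHOTAIRM1. The counting interval of the ratio lay above 1 in U251 alone (1.34, 1.22 to 1.47), with ratios of 0.98 (0.89 to 1.09) in LN-229 and 1.08 (0.98 to 1.19) in T98G. The mean change was 0.16 ± 0.21 (SD, n = 3 cell lines) and was 0.04 without U251.

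SIAH2, the second SIAH ligase, was at 7.16, 8.69 and 15.6 CPM with siControl and at 8.21, 8.25 and 18.4 CPM with siHOTAIRM1 in the same order of lines. The ratio was 1.15 in LN-229 (counting interval 1.03 to 1.27), 0.95 in T98G (0.85 to 1.06) and 1.18 in U251 (1.08 to 1.28). The mean change was 0.11 ± 0.15 (SD, n = 3 cell lines). The direction in T98G turned with the scale, from −0.07 as deposited to 0.12 relative to the median gene of that line.

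**Figure D1:**
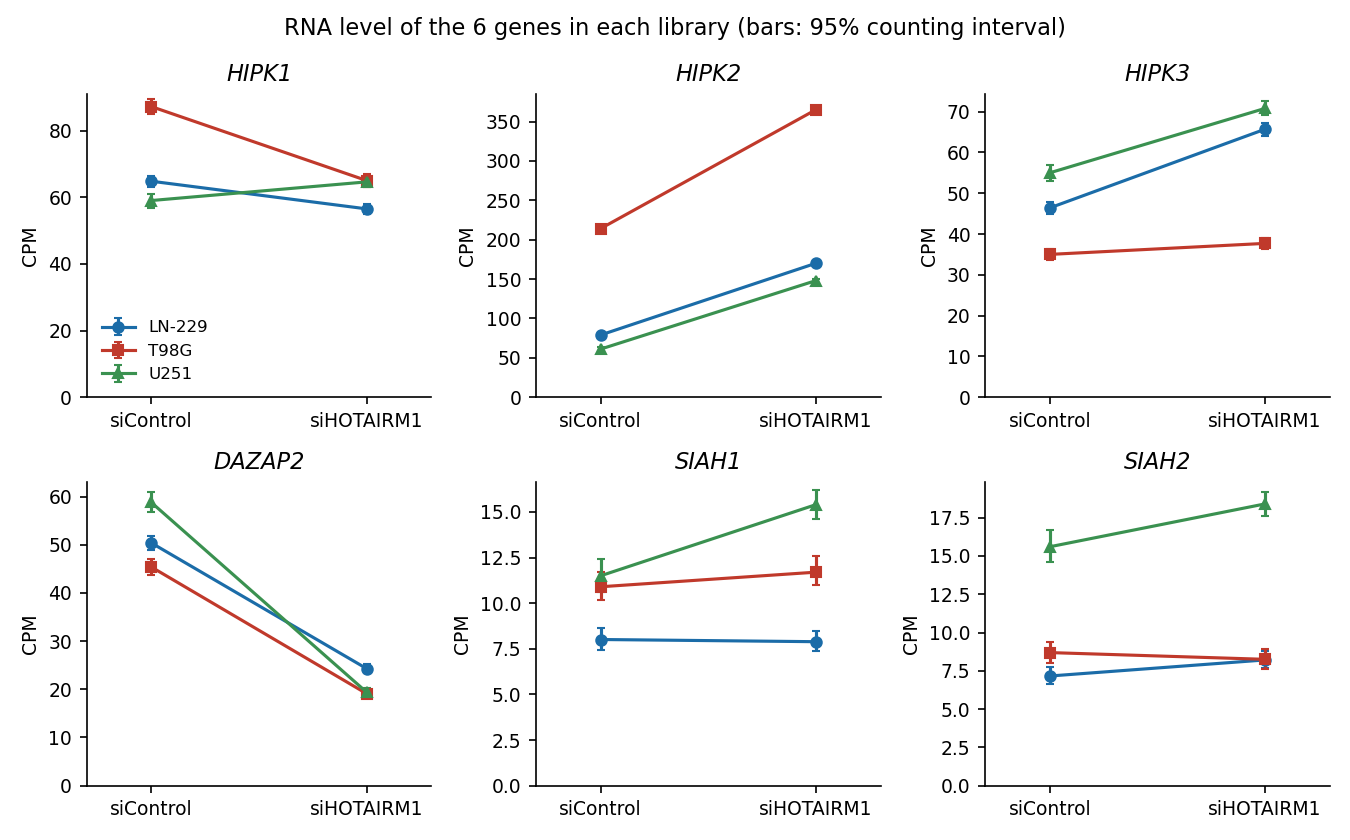
RNA level in CPM (vertical axes, from 0, 1 scale per gene) of the 6 genes with siControl and siHOTAIRM1; each line joins the 2 libraries of a cell line and bars are 95% counting intervals of single libraries. HIPK2 is higher and DAZAP2 lower with siHOTAIRM1 in all 3 lines, and T98G has the highest HIPK2 level in both conditions, 214 and 365 CPM.

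**Figure D2:**
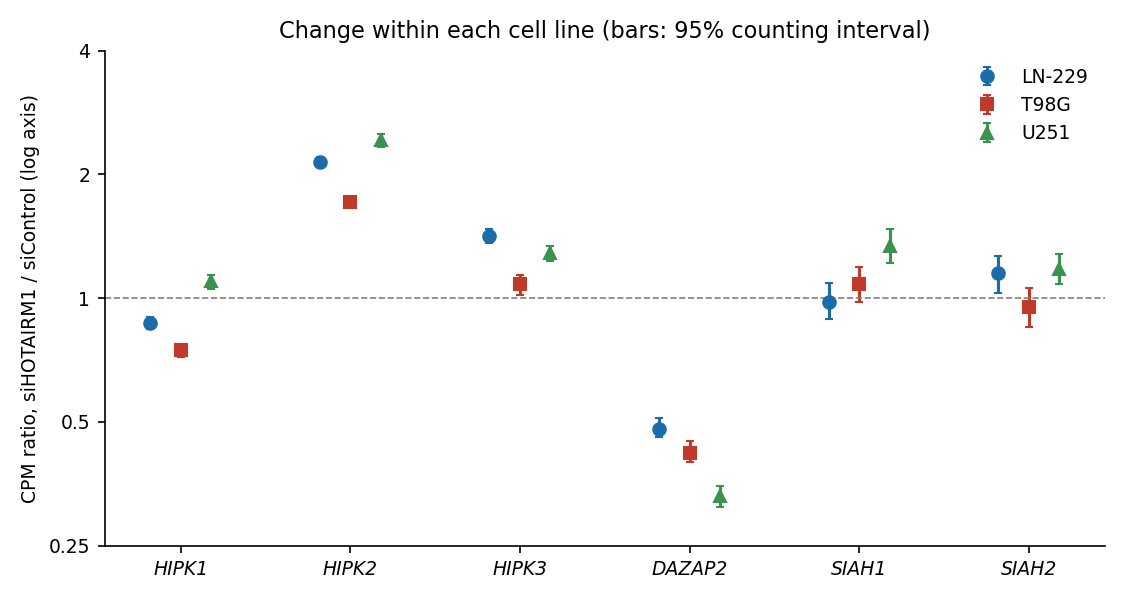
Ratio of CPM, siHOTAIRM1 over siControl (log axis), for each gene and cell line, with 95% counting intervals; the dashed line marks a ratio of 1. HIPK2 lies between 1.71 and 2.42, DAZAP2 between 0.33 and 0.48, and the other 4 genes between 0.75 and 1.42.

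By counts over the group, 2 of the 6 genes, HIPK2 and DAZAP2, were past the knock-down threshold, beside 2% of all genes tested (0.413% higher and 1.59% lower). These are the genes for which the group was chosen, so nothing is read from that count. HIPK3 had the same sign in all 3 lines both on the deposited scale and relative to the median gene. HIPK1, SIAH1 and SIAH2 had a line of the opposite sign on the deposited scale. On that scale 11.4% of all genes tested were higher and 28.1% lower in all 3 lines. Of all genes tested, 47% had a mean change at least as large as that of SIAH1 and 61.2% one at least as large as that of SIAH2.

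**Figure D3:**
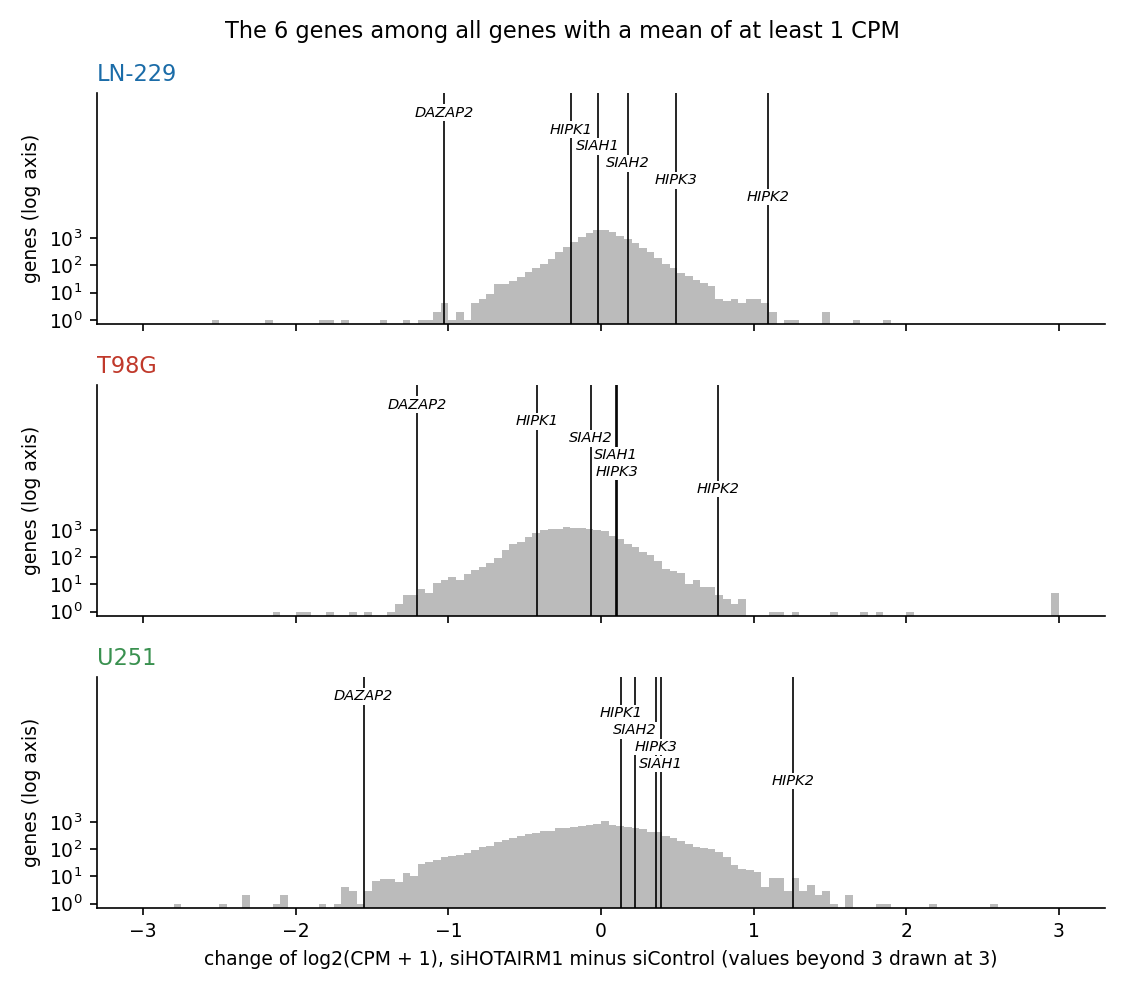
Histograms of the change of log2(CPM + 1), siHOTAIRM1 minus siControl, of 14294 genes in each cell line (number of genes on a log axis, values beyond 3 drawn at 3), with black lines at the 6 genes. HIPK2 (0.77 to 1.26) and DAZAP2 (−1.56 to −1.03) lie in the tails of all 3 lines, and the other 4 genes lie between −0.42 and 0.49.

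Levels per kilobase of the principal transcript put the genes on 1 scale within a library. With siControl, DAZAP2 was the most abundant of the 6 in all 3 lines, at 24.4, 22 and 28.5 CPM per kb for LN-229, T98G and U251. HIPK2 was at 5.15, 14 and 3.98 CPM per kb, and was the lowest of the 6 in U251. With siHOTAIRM1 the levels of both genes approached each other or crossed. HIPK2 was then at 11.1, 23.8 and 9.63 CPM per kb and DAZAP2 at 11.8, 9.26 and 9.38. The ratio of HIPK2 to DAZAP2 per kb went from 0.21 to 0.94 in LN-229, from 0.64 to 2.57 in T98G and from 0.14 to 1.03 in U251. HIPK2 was chosen for its rise and DAZAP2 for its fall, so the direction of these ratios was largely set by the choice. These ratios depend on the transcript length used, because the principal transcript of DAZAP2 is much shorter than the union of its exons (5299 bases). With union lengths they went from 0.53 to 2.37, from 1.60 to 6.49 and from 0.35 to 2.59, HIPK2 rather than DAZAP2 was then the highest in T98G with siControl, and SIAH1 rather than HIPK2 the lowest in U251 with siControl.

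Among the kinases, HIPK2 made up 26.9% of the summed HIPK1, HIPK2 and HIPK3 level per kb with siControl in LN-229, while this share was 47.8% for T98G and 21.6% for U251. With siHOTAIRM1 it was 41.7%, 64.9% and 35.9%. The sum of the kinases per kb was 19.1, 29.2 and 18.4 with siControl and 26.6, 36.7 and 26.8 with siHOTAIRM1, so it was higher in every line. This sum and the share contain HIPK2, which was chosen for its rise, so nothing about the kinases as a group is read from either. The sum of SIAH1 and SIAH2 per kb was 6.89, 8.93 and 12.2 with siControl and 7.29, 9.13 and 15.2 with siHOTAIRM1. SIAH2 was below SIAH1 per kb in LN-229 and T98G and above it in U251, with SIAH2 to SIAH1 ratios of 0.82, 0.73 and 1.24 in siControl. With union exon lengths SIAH2 was above SIAH1 in all 6 libraries, so their order was not fixed by these data.

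**Figure D4:**
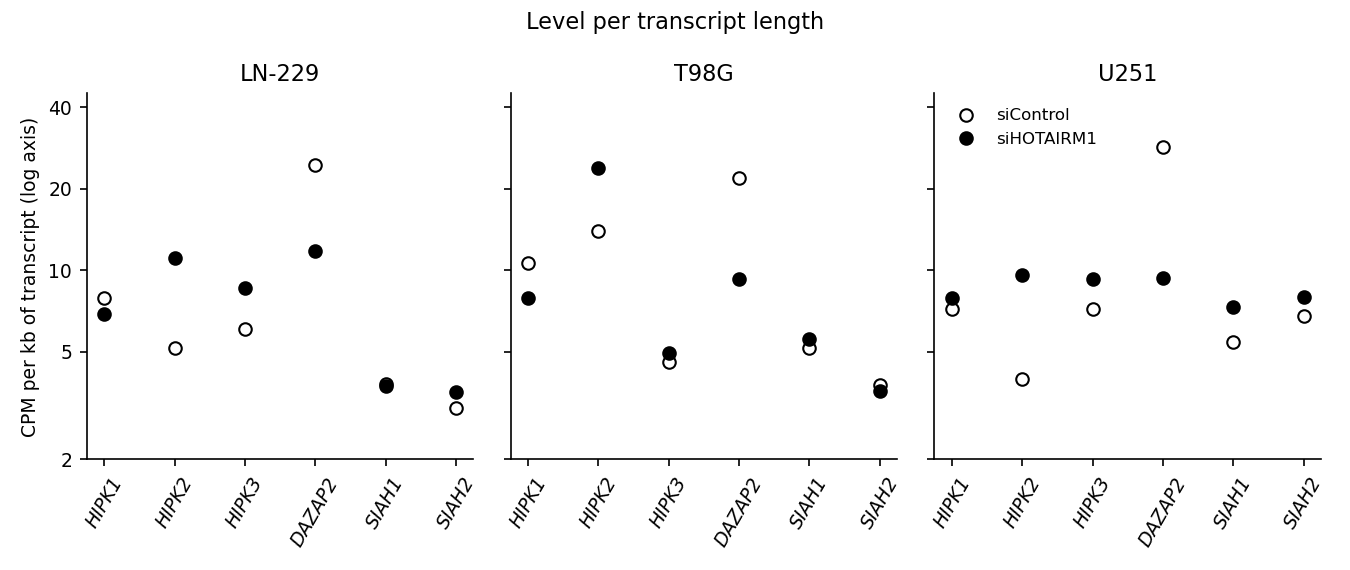
Level in CPM per kb of principal transcript (log axis) of the 6 genes in each cell line, open circles siControl and filled circles siHOTAIRM1, 1 library each. DAZAP2 is the highest open circle in all 3 lines, and the open circles of HIPK2 lie at 5.15, 14 and 3.98 CPM per kb.

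The 3 cell lines differed in the level of 4 of the 6 genes, HIPK2, HIPK3, SIAH1 and SIAH2, in at least 1 pair of lines, and no pair passed for HIPK1 or DAZAP2. In each comparison the 2 libraries of a line were set against those of another with the condition as a block in limma, and adjusted p-values are over all 14294 genes. T98G differed from LN-229 in 3 of 6 genes, beside 54.9% of all genes, U251 from LN-229 in 2 of 6, beside 60.6%, and U251 from T98G in 3 of 6, beside 64.2%. The share of the 6 genes was thus not above that of all genes in any pair. The 2 libraries of a line were 1 siControl and 1 siHOTAIRM1 library, so neither was a replicate of the other. The p-values set the difference in level between 2 lines against a spread. With both terms in the fit, that spread is how unevenly the change between conditions varied between lines, technical spread included. In limma it is drawn towards the spread of other genes of similar level. For HIPK2 and DAZAP2 that spread comes in part from the changes on which they were chosen. Where 1 library of a line is left out, the line has 1 library, which is assumed to vary like the others. Without the filter on low values 7 of the 8 calls were lost, with limma adjusted p-values from 0.0532 to 0.234, and the call of SIAH2 between U251 and LN-229 was the exception.

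HIPK2 was higher in T98G than in LN-229 by 1.27 ± 0.20 (limma SE) on the log2 scale, or 2.4-fold (adjusted p = 1.16e-06). It was lower in U251 than in T98G, with a difference of −1.55 ± 0.20, or 2.93-fold (adjusted p = 2.04e-08). U251 and LN-229 were neighbours in this order, with libraries that overlapped and a difference of −0.28 ± 0.20 that did not pass (limma adjusted p = 0.216). The difference passed with each library centred on its median (−0.41, limma adjusted p = 0.0281) or rescaled to its listed genes (−0.64, limma adjusted p = 0.0107). Without the condition as a block, the adjusted p of the difference between T98G and LN-229 was 0.0544 in limma.

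HIPK3 had its lowest level in T98G, the line with the highest HIPK2 level. It was lower in T98G than in LN-229 by −0.59 ± 0.18 (SE) on the log2 scale (limma adjusted p = 0.0051) and higher in U251 than in T98G by 0.77 ± 0.18 (limma adjusted p = 0.000326). U251 and LN-229 differed by 0.17 ± 0.18 (limma adjusted p = 0.409). With 1 of their 4 libraries left out, the difference between T98G and LN-229 was −0.75 to −0.43, and it did not pass without the siHOTAIRM1 library of LN-229 (−0.46, limma adjusted p = 0.128) or that of T98G (−0.43, limma adjusted p = 0.11). With each library rescaled to its listed genes, the difference between U251 and T98G was 0.37 (limma adjusted p = 0.0495), and with median centring 0.55 (limma adjusted p = 0.00265). U251 and LN-229 were not ordered by these tests for HIPK3.

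SIAH2 was highest in U251, above LN-229 by 1.05 ± 0.18 (SE) on the log2 scale (limma adjusted p = 4.03e-06) and above T98G by 0.92 ± 0.18 (limma adjusted p = 2.69e-05), while T98G and LN-229 differed by 0.13 ± 0.18 (limma adjusted p = 0.56). SIAH1 was higher in U251 than in LN-229 by 0.68 ± 0.18 (limma adjusted p = 0.0014) and higher in T98G than in LN-229 by 0.46 ± 0.18 (limma adjusted p = 0.0278). Neither SIAH1 call held in every alternative. With 1 of the 4 libraries of T98G and LN-229 left out, that difference was 0.33 to 0.59 with a larger SE of 0.24 to 0.25, and none of the 4 fits passed (limma adjusted p = 0.0665 to 0.315), nor did the fit without the condition as a block (0.46, adjusted p = 0.0666). The difference between U251 and LN-229 was 0.54 without the siHOTAIRM1 library of LN-229 (limma adjusted p = 0.0799) and 0.50 without that of U251 (0.0701), and 0.36 with each library rescaled to its listed genes (0.12). U251 and T98G differed in SIAH1 by 0.21 ± 0.18 (limma adjusted p = 0.298).

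For HIPK1 and DAZAP2 no pair of lines passed. HIPK1 differed by 0.31 ± 0.18 (SE) between T98G and LN-229 on the log2 scale (limma adjusted p = 0.15), by 0.03 ± 0.18 between U251 and LN-229 (0.905) and by −0.28 ± 0.18 between U251 and T98G (0.178). DAZAP2 differed by −0.24 ± 0.18 between T98G and LN-229 (limma adjusted p = 0.257), by −0.05 ± 0.18 between U251 and LN-229 (0.837) and by 0.19 ± 0.18 between U251 and T98G (0.349). With each library centred on its median, HIPK1 passed for T98G against both LN-229 (0.40, limma adjusted p = 0.0387) and U251 (−0.49, 0.0131). With each library rescaled to its listed genes, HIPK1 passed for U251 against T98G (−0.68, limma adjusted p = 0.00823) but not for T98G against LN-229 (0.35, 0.123). In the rescaled fit DAZAP2 passed for U251 against LN-229 (−0.41, limma adjusted p = 0.038).

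Genes on the opposite strand overlap 5 of the 6, and as the library kit is not stated to keep strand, reads of such pairs cannot be told apart where exons overlap. SIAH1 shares 1793 exon bases with LONP2, the gene of a peroxisomal protease, which was at 50.8 to 127 CPM and lower with siHOTAIRM1 in all 3 lines. With siControl LONP2 was at 55.3, 83.1 and 127 CPM in LN-229, T98G and U251, and with siHOTAIRM1 at 50.8, 65.2 and 118 CPM. This is the order of lines of SIAH1 at higher levels, and whether LONP2 reads add to the SIAH1 differences between lines was not tested. DAZAP2 shares 313 exon bases with SMAGP, which was at 3.18 to 4.54 CPM and also lower with siHOTAIRM1 in all 3 lines. HIPK2 shares no exon base with TBXAS1, the thromboxane synthase gene, whose span overlaps that of HIPK2 on the opposite strand. TBXAS1 was at 8.06, 36.1 and 1.74 CPM with siControl and at 6.94, 27.7 and 1.11 CPM with siHOTAIRM1. TBXAS1 thus had the order of lines of HIPK2 and the opposite direction after knock-down. The antisense genes HIPK1-AS1 and SIAH2-AS1 were at most at 0.399 and 0.0767 CPM. The DAZAP2 pseudogene DAZAP2P1 had 8 to 18 reads per library and the SIAH1 pseudogene SIAH1P1 none, so in the deposited assignment of reads neither held a large part of the reads of its parent gene.

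Of 82 further genes in 6 lists of known partners, substrates and relatives, 74 passed the filter, and 1 of them, SOX6, passed the knock-down threshold, beside the 2% of all genes. Over these 74 genes the median change was −0.03 on the log2(CPM + 1) scale, against −0.07 for all genes. They were higher in all 3 lines for 14 (18.9%) and lower in all 3 for 18 (24.3%), against 11.4% and 28.1% of all genes, and 7 (9.46%) had an unadjusted limma p under 0.05, against 2622 (18.3%) of all genes.

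Among genes that regulate HIPK2 none of 16 tested passed, 1 was higher and 6 were lower in all 3 lines, and the median change was −0.07. WSB1, a ubiquitin ligase subunit known to target HIPK2, had the largest change of this list at 0.44 ± 0.16 (SE, limma adjusted p = 0.129). It was at 36 and 37.5 CPM in LN-229, 105 and 126 CPM in T98G and 50.9 and 104 CPM in U251 with siControl and siHOTAIRM1, so most of the difference came from U251. MDM2, a ubiquitin ligase that also acts on HIPK2, changed by 0.23, −0.23 and 0.48 in LN-229, T98G and U251 (mean 0.16 ± 0.16, SE, limma adjusted p = 0.609).

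Among substrates and cofactors of HIPK2 none of 16 tested of 19 passed, and the median change was 0.11. CREBBP, an acetyltransferase that works with HIPK2, had the largest change and the same direction in all 3 lines, from 20.8 to 25.1 CPM in LN-229, 28.7 to 36.2 CPM in T98G and 16.8 to 21.1 CPM in U251 (mean 0.30 ± 0.14, SE, limma adjusted p = 0.244). In this list 6 genes were higher in all 3 lines and 2 lower.

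Among genes known to respond to DNA damage none of 14 tested of 15 passed, 1 was higher and 4 were lower in all 3 lines, and the median change was −0.04. TNFRSF10B, the death receptor DR5, had the largest change at 0.34 ± 0.16 (SE, limma adjusted p = 0.248), and went from 41.8 to 72 CPM in U251 but from 85.3 to 84.2 CPM in T98G. CDKN1A, the cell cycle inhibitor p21, went from 18.3 to 15.2 CPM in LN-229, 11 to 7.89 CPM in T98G and 6.51 to 6.03 CPM in U251 (mean −0.26 ± 0.14, SE, limma adjusted p = 0.341).

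Among SIAH substrates and cofactors none of 21 passed, 4 were higher and 4 lower in all 3 lines, and the median change was −0.04. SKP1, a scaffold that links SIAH1 to β-catenin breakdown, had the largest change, from 92.7 to 90 CPM in LN-229, 149 to 116 CPM in T98G and 154 to 110 CPM in U251 (mean −0.30 ± 0.16, SE, limma adjusted p = 0.303). Of the prolyl hydroxylases of the hypoxia response, which include known SIAH2 substrates, EGLN1 changed by 0.01, −0.12 and 0.86, EGLN2 by 0.12, −0.15 and −0.10 and EGLN3 by 0.14, 0.15 and 0.12 in LN-229, T98G and U251. None of these passed the threshold (limma adjusted p = 0.408, 0.906 and 0.64).

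Among DAZAP2 partners, 3 of 5 were tested. SOX6, a SOX family transcription factor and a known binding partner of DAZAP2, went from 13.2 to 18.4 CPM in LN-229, from 1.22 to 2.63 CPM in T98G and from 0.555 to 1.4 CPM in U251. It rose in all 3 lines, by 0.46, 0.71 and 0.63 (mean 0.60 ± 0.14, SE, limma adjusted p = 0.0147). The change was of similar size but past no threshold with each library centred on its median (0.68, limma adjusted p = 0.0917), without U251 (0.58, adjusted p = 0.0767) and without T98G (0.54, adjusted p = 0.581). TCF7L2, a β-catenin partner bound by both DAZAP2 and HIPK2, changed by 0.09, 0.01 and 0.39, and EIF4G1, a scaffold of translation initiation, by 0.04, −0.18 and 0.30. In T98G TCF7L2 was at 0.0725 and 0.0826 CPM, where the pseudocount holds any change near 0.

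Among relatives none of 6 tested of 8 passed. HIPK4 was at most at 0.0276 CPM, below the level of 3 reads in every library, and SIAH3 was detected in U251 alone, at 0.785 and 0.84 CPM. The related kinase DYRK4 had the largest change, from 4.51 to 4.46 CPM in LN-229, 5.26 to 3.61 CPM in T98G and 6.53 to 4.09 CPM in U251 (mean −0.34 ± 0.14, SE, limma adjusted p = 0.199). DAZAP1, which shares a binding partner but no family with DAZAP2, changed by 0.12, −0.09 and 0.11.

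**Figure D5:**
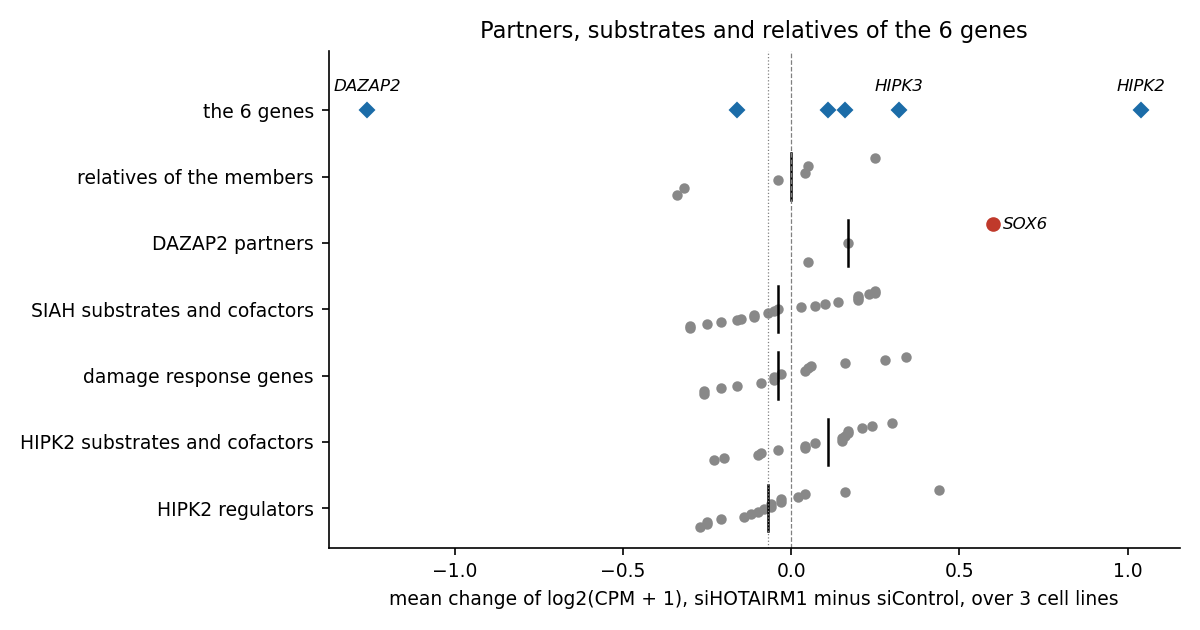
Mean change of log2(CPM + 1), siHOTAIRM1 minus siControl, over 3 cell lines, for the 6 genes (blue diamonds) and the tested genes of 6 lists (grey points, red where past the threshold), with the list median as a black bar, the median of all genes as a dotted line and 0 as a dashed line. SOX6 at 0.60 is the only red point, and the other listed genes lie between −0.34 and 0.44.

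The genes whose profile over the 6 libraries was nearest to each member were found by the root mean square difference of log2(CPM + 1), each gene centred on its mean. Nearest to HIPK2 were MGP at 0.19, NEAT1 at 0.34, CTB-131B5.5 at 0.35 and EHD2 at 0.36, against a spread of HIPK2 around its own mean of 0.86. MGP, an extracellular matrix protein that inhibits calcification, changed by 0.85, 0.78 and 0.68 in LN-229, T98G and U251, and NEAT1, the RNA scaffold of paraspeckles, by 0.39, 0.17 and 1.01. Nearest to DAZAP2 were SEC23A at 0.19, TERF2IP at 0.24, RP11-312J18.5 at 0.25 and SMS at 0.26, against a spread of 0.65. SEC23A, a coat protein of vesicles leaving the endoplasmic reticulum, changed by −0.62, −1.04 and −1.09, and TERF2IP, a telomere-binding protein, by −0.64, −0.96 and −1.44. MGP thus had the order of lines of HIPK2, at much lower levels of 0.191 to 5.16 CPM, where the pseudocount shrinks changes. Nearest to the other members were L3MBTL2 and MYBL1 for HIPK1 (0.05 and 0.06), RBM8B and HMGN2P5 for HIPK3 (0.08 and 0.09), DFNB31 and ZNF449 for SIAH1 (0.05 and 0.06), and CSNK1D and CIRBP for SIAH2 (0.04 and 0.05). The libraries share cell lines and the nearest genes were taken from 14294, so this likeness is a description of these 6 libraries.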

How the data were processed

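RNA-seq of 6 libraries (3 cell lines, siControl and siHOTAIRM1) was analysed. Per the labels and methods, the authors prepared libraries with the TruSeq RNA Sample Preparation v2 kit and, in Partek Flow, aligned reads to hg38 with STAR 2.4.1d and quantified Ensembl genes by expectation maximisation. The deposited table holds CPM per gene, to which the authors added 0.0001. Each library adds up to 42.9 to 67.2% of the full CPM scale, so its denominator includes reads outside the listed genes. Depth (52.3 to 104 M reads) was taken from the CPM worth of 1 read. Since 68.3 to 74.7% of values were whole reads (tolerance 0.01), no count test was run.

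A change is a difference of log2(CPM + 1), which understates changes of low genes. Genes averaging 1 CPM or more were fitted in limma 3.58.1 (R 4.3.3) with trend, cell line and condition as terms, and Benjamini-Hochberg adjustment over 14294 genes, with a threshold of 0.05. Intervals are 95% counting intervals (Wilson for levels). The cell line pairs the libraries: deviations from the condition means correlated at 0.948 to 0.967 within a line and −0.505 to −0.467 between lines. Lengths and positions are from GENCODE 44 on hg38 (32766 of 59074 symbols matched, and 12336 of the 14294 tested genes have a transcript length).

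The members and lists were chosen with earlier results of these data known. Named were the members, HOTAIRM1, listed genes past the threshold or otherwise the largest change of a list, the nearest profiles (4 for HIPK2 and DAZAP2, 2 for the others), markers, pseudogene or antisense symbols of the members, and neighbours of HIPK2 and DAZAP2 in the order of change. Genes overlapping a member, MDM2, CDKN1A, EGLN1, EGLN2, EGLN3, TCF7L2, EIF4G1, HIPK4, SIAH3 and DAZAP1 were named outside this rule, after their values were seen. Y-linked genes were left out of the lists, and 1 further gene is not reported here. The alternatives were no block, median centring, no filter, a pseudocount of 0.1, removal of the trend with transcript length, each line or library left out, and, added after the data were seen, rescaling to the sum of the listed genes.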

Additional observations from a re-analysis of the deposited data

Results flagged for a closer look

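The knock-down change of log2(CPM + 1) had opposite signs in different lines for 3 of the 6 genes. With 1 library per line and condition, none of these differences between lines was tested. Among all genes tested, 11.4% were higher and 28.1% lower in all 3 lines, so mixed signs were common. HIPK1 was higher in U251 (0.13) and lower in T98G (−0.42), a difference of 0.55. SIAH1 was higher in U251 (0.39) and close to level in LN-229 (−0.02), a difference of 0.41. SIAH2 was higher in U251 (0.22) and lower in T98G (−0.07), a difference of 0.29. Relative to the median gene of each line its T98G value was 0.12 and the directions were no longer opposite. The counting intervals of the CPM ratio included 1 for SIAH1 in LN-229 (0.89 to 1.09) and for SIAH2 in T98G (0.85 to 1.06).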

How the results depend on the processing

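The knock-down changes of the 6 genes moved by less than 1 SD in all 48 alternatives run, but many of these could not have moved further. The fits with no replicate block return the same mean, and leaving out 1 line cannot move a mean over so few lines by 1 SD. Only median centring, the pseudocount, the length trend and rescaling could have done so. Over its 8 alternatives HIPK2 stayed within 0.93 to 1.19 and DAZAP2 within −1.38 to −1.12. The number of genes past the knock-down threshold, 286 in limma, moved more. It was 41 with each library centred on its median, 683 with a pseudocount of 0.1, 759 with the trend with transcript length removed and 25 with rescaling to the listed genes, an alternative chosen after seeing the data. It was 0 with no filter (2153 at an unadjusted p under 0.05), 0 in the fit with no replicate block (29 unadjusted), where the cell lines are not paired, and 0 to 270 with 1 line left out, the 0 being without T98G (1206 unadjusted). The cause was not tested. Of the listed partner genes, 1 (SOX6) was past the threshold with a pseudocount of 0.1, with the length trend removed and without LN-229, and 0 were in the median-centred, unfiltered, rescaled and unpaired fits and without T98G or U251 (0 to 1 over the lines left out). Calls between cell lines fell to 4317, 3804 and 3923 of 59074 genes with no filter (T98G against LN-229, U251 against LN-229 and U251 against T98G) and for T98G against LN-229 ranged from 5107 to 8046 with 1 library left out, 5107 being without T98G siHOTAIRM1. Of 198 alternatives for the differences of the 6 genes between lines, 163 kept direction and side of the threshold, 18 lost the call, 6 gained one and 11 turned direction. All that turned were below the threshold as reported. DAZAP2 was at −0.02 for U251 minus T98G when centred and −0.20 when rescaled, and at −0.03 (without U251 siControl) to 0.41 with 1 library left out, and for U251 minus LN-229 at −0.27 to 0.17, with 0.13 and 0.17 without the siHOTAIRM1 library of LN-229 or U251. HIPK1 for U251 minus LN-229 was at −0.10 when centred, −0.33 when rescaled and −0.19 (without U251 siHOTAIRM1) to 0.25 with 1 library left out. When rescaled, HIPK3 was at −0.18 for U251 minus LN-229 and SIAH1 at −0.16 for U251 minus T98G, and SIAH2 was at −0.01 (without T98G siControl) to 0.26 for T98G minus LN-229 with 1 library left out. The replicate block changed 2 calls of the 6 genes between lines, both T98G against LN-229: HIPK2 (adjusted p = 0.0544 without it) and SIAH1 (0.0666).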
